A study of Sus scrofa with 12 samples.

Results

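The miR-194 family of pig liver (Sus scrofa) was followed through 12 small RNA libraries as the 3 listed entries ssc-miR-194a-5p, ssc-miR-194b-5p and miR-194-x. They were taken by name from the 774 entries of the deposited table, and all 3 had counts in every library and passed the filter on low counts. Livers came from 3 Hezuo pigs kept in the cold (-15 ± 2 °C), 3 Hezuo pigs at normal temperature (23 ± 2 °C), 3 Bama pigs in the cold and 3 Bama pigs at normal temperature, all sampled at day 15. The study looked for liver RNAs tied to the cold resistance of Hezuo pigs, with the normal-temperature pigs of each breed as controls. Pig numbers 1 to 3 recur at both temperatures, with no statement that they mark a shared animal, so the libraries were treated as separate animals and p-values measure the spread between these libraries. The pigs' age was not stated in the labels. The listed counts summed to between 7184168 and 10384074 tags per library, and miR-122-5p, which defines hepatocytes among miRNAs, was the most abundant entry.

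MicroRNAs guide the silencing machinery to messenger RNAs mainly through the seed, bases 2 to 8 from the 5′ end. MiR-194 is one of the abundant miRNAs of liver and gut epithelium. In mammals it is made from a pair of genes, one beside miR-192 and the other beside miR-215, and in human cells p53 is known to raise their products. In the RefSeq annotation of the pig (Sscrofa11.1), MIR194A has MIR192 as its neighbour, with the protein-coding gene ATG2A on the other side. MIR194B comes between MIR215 and RAB3GAP2. These are neighbours in order of start position, and whether another gene spans either locus was not looked at. The names of the deposited entries therefore point to separate loci for the 2 porcine members. In whole liver a lower level of a miRNA cannot be told apart from fewer cells that make it.

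The members are printed because the 2 porcine entries differ by a base in the middle and the other entry differs in length alone. Each is written 5′ to 3′ as in the deposited table, with the seed in capitals.
ssc-miR-194a-5p: tGTAACAGcaactccatgtgg
ssc-miR-194b-5p: tGTAACAGcgactccatgtgga
miR-194-x: tGTAACAGcaactccatgtggaat
All 3 carried the same seed, and no other entry of the table had it. Counted from 1 at the 5′ end, ssc-miR-194b-5p differed from ssc-miR-194a-5p by A10G, outside the seed, and had 1 more base at its 3′ end (22 against 21 nt). MiR-194-x, named after other species, matched all 21 bases of ssc-miR-194a-5p and ran 3 bases further, to 24 nt. It is therefore described below as the longer form of miR-194a. How the authors divided tags between entries that differ by 1 base or by length was not stated.

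The family was led by ssc-miR-194a-5p. Over the 12 libraries it averaged 4203 ± 536 CPM (SD, n = 12; CPM, the count relative to the library's TMM-scaled total) and ranked 18th of all entries by mean CPM, between miR-30a-5p at 4246 CPM and let-7a at 4075 CPM. MiR-194-x averaged 131 ± 28.8 CPM and ranked 90th, and ssc-miR-194b-5p averaged 4.32 ± 4.89 CPM and ranked 302nd. The order of the 3 was the same in every library, with ssc-miR-194a-5p always above miR-194-x and ssc-miR-194b-5p lowest. The family's 3 entries together made up 0.410% ± 0.0565 of listed counts in Hezuo cold (SD, n = 3), 0.413% ± 0.0111 in Hezuo normal, 0.453% ± 0.0518 in Bama cold and 0.457% ± 0.0604 in Bama normal. Of the family's tags, miR-194a took 96.2% ± 0.468 in Hezuo cold, 96.3% ± 0.310 in Hezuo normal, 97.8% ± 0.183 in Bama cold and 97.1% ± 0.371 in Bama normal.

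**Figure D1:**
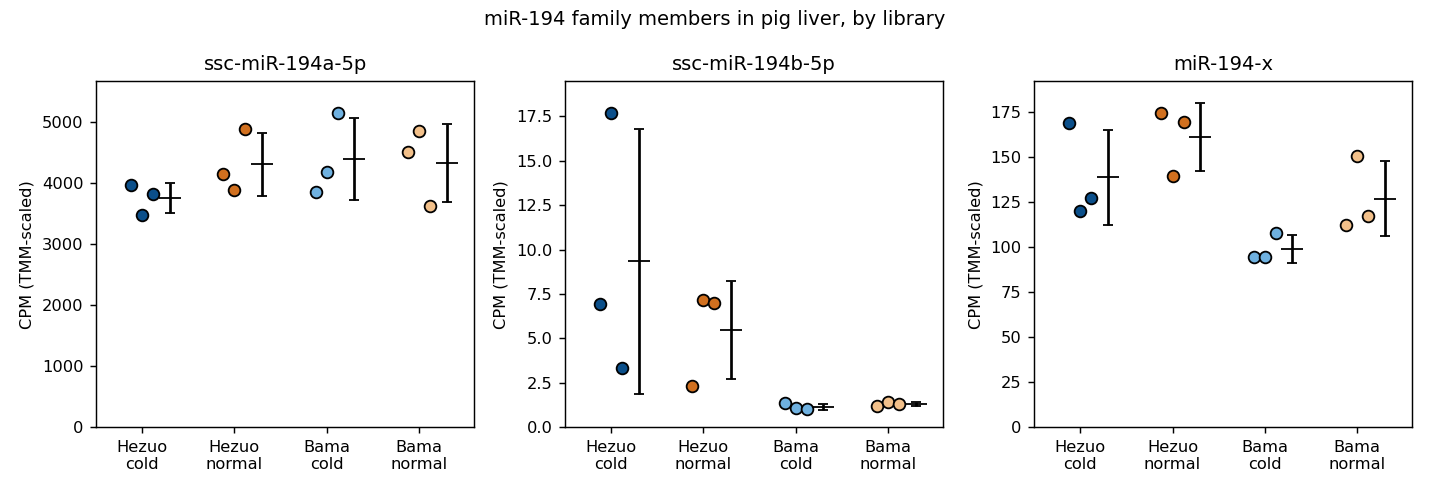
CPM (TMM-scaled) of the 3 miR-194 entries in each library, by group (n = 3 each); points are libraries, and the bar beside them is the mean with its SD. The cold and normal ranges of ssc-miR-194a-5p overlap in both breeds, while the 6 Hezuo livers lie above the 6 Bama livers for ssc-miR-194b-5p.

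Neither cold nor breed gave a call for ssc-miR-194a-5p, the bulk of the family. Its CPM was 3975, 3489.5 and 3825 in Hezuo cold livers, against 4159.7, 3892 and 4885 in Hezuo normal livers. It was 3859, 4186 and 5162 in Bama cold livers, against 4511, 4863 and 3634 in Bama normal livers. The cold and normal ranges overlapped in both breeds. Differences are on the log2 scale from 1 edgeR fit of all 12 libraries and 460 entries, with p-values adjusted over all entries. Cold minus normal was -0.09 averaged over both breeds (SE 0.10, 95% interval -0.29 to 0.12, adjusted p = 0.658). It was -0.20 in Hezuo (interval -0.49 to 0.10, adjusted p = 0.75) and 0.02 in Bama (interval -0.27 to 0.32, adjusted p = 0.973). Changes within these bounds could not be resolved.

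Hezuo minus Bama was likewise close to 0 for ssc-miR-194a-5p. It was -0.12 averaged over both temperatures (SE 0.10, 95% interval -0.32 to 0.09, adjusted p = 0.486), -0.23 under cold (interval -0.52 to 0.07, adjusted p = 0.48) and -0.01 at normal temperature (interval -0.30 to 0.29, adjusted p = 0.982). The difference between the breeds' cold responses was -0.22 (interval -0.63 to 0.20, adjusted p = 0.961).

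In proportion to ssc-miR-192, a product of the neighbouring gene and itself a liver and gut miRNA, ssc-miR-194a-5p gave no call for cold or breed. There were 172, 174 and 215.2 tags of ssc-miR-194a-5p per 1000 tags of ssc-miR-192 in Hezuo cold livers, and 209, 200.4 and 203 in Hezuo normal livers. The Bama cold livers had 195, 207 and 199, and the Bama normal livers 191, 189.9 and 173. The first 2 Hezuo cold livers and Bama normal liver 3 were the lowest, and the third Hezuo cold liver was the highest. The log2 ratio differed by -0.01 between cold and normal (exact permutation within breed, two-sided, p = 0.925, adjusted 0.925 over 6 ratio tests) and by 0.02 between Hezuo and Bama (exact permutation within temperature p = 0.81, adjusted 0.925). This rests on the 21-nt entries, and ssc-miR-192 at a mean of 21699 CPM was less abundant than miR-192-x at 40529 CPM. When the forms that share their first 16 nt were summed, which adds the longer miR-192-x and miR-192-z, the ratio was 0.18 higher in cold than in normal livers (exact permutation, adjusted p = 0.02) and 0.31 lower in Hezuo than in Bama, as a log2 difference of -0.31 (exact permutation, adjusted p = 0.01).

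The rare member ssc-miR-194b-5p set the breeds apart. It had 60, 137 and 27 tags in Hezuo cold livers and 19, 74 and 52 in Hezuo normal livers, against 14, 8 and 8 in Bama cold livers and 9, 11 and 10 in Bama normal livers. Scaled, this was 6.93, 17.7 and 3.37 CPM in Hezuo cold and 2.32, 7.16 and 6.97 CPM in Hezuo normal, against 1.35, 1.09 and 1.06 CPM in Bama cold and 1.197, 1.42 and 1.30 CPM in Bama normal. All 6 Hezuo livers lay above all 6 Bama livers, a separation that 2.39% of the 460 tested entries showed in this direction. The coefficient of variation was 11.7% over the Bama livers (n = 6) and 73.6% over the Hezuo livers (n = 6). The highest Hezuo value was in Hezuo cold liver 2 and the lowest in Hezuo normal liver 1. At 8 to 14 tags per library counting error is large, so the small Bama spread does not show that the Bama livers were alike. The 8 to 14 Bama tags stood beside 28058 to 40051 tags of ssc-miR-194a-5p, which is 1 base different over their shared length. Whether some or all of these few tags are misread ssc-miR-194a-5p was not tested, so the Bama level, and with it the fold and the ratios below, carry this limit.

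Averaged over both temperatures, ssc-miR-194b-5p was 5.72-fold higher in Hezuo than in Bama (log2 difference 2.52, SE 0.41, 95% interval 1.62 to 3.41, adjusted p = 0.00167). Of the 460 entries, 11.1% were called in this contrast, 6.74% as higher in Hezuo, and 2 of the 3 members were among them. Only 4 entries had a larger positive difference. The call held whichever library was left out, at 2.04 to 2.72, and under all 10 other settings tried. Under cold the difference was 2.97 (SE 0.59, adjusted p = 0.0113), a contrast with 4.35% of entries called and 1 of the 3 members. That call was lost without Bama cold liver 1 (3.10, adjusted p = 0.0544), without Bama cold liver 3 (2.92, adjusted p = 0.0524) and with limma-voom (2.60, adjusted p = 0.0954), and without Hezuo cold liver 2 the difference was 2.10 (adjusted p = 0.031). At normal temperature, where 3.7% of entries were called, it was 2.06 (SE 0.59, adjusted p = 0.055) and did not pass. It passed there with DESeq2 (2.04, adjusted p = 0.0141), with upper quartile scaling (2.20, adjusted p = 0.0433), and without Hezuo cold liver 2 (1.98, adjusted p = 0.0279), Hezuo cold liver 3 (2.03, adjusted p = 0.0361) or Hezuo normal liver 1 (2.44, adjusted p = 0.038).

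Cold gave no call for ssc-miR-194b-5p. In Hezuo the mean was 9.34 ± 7.47 CPM under cold and 5.48 ± 2.74 CPM at normal temperature (SD, n = 3 each), a log2 difference of 0.76 (95% interval -0.33 to 1.85, adjusted p = 0.75). Without Hezuo cold liver 2 it was -0.04 (adjusted p = 0.995), so the positive value rested on that liver. In Bama the means were 1.17 ± 0.159 CPM under cold and 1.30 ± 0.111 CPM at normal temperature, a difference of -0.15 (interval -1.58 to 1.29, adjusted p = 0.957). At 8 to 14 tags per Bama library, a change within that interval was not detectable. Over both breeds cold minus normal was 0.31 (interval -0.60 to 1.21, adjusted p = 0.719), and the breeds' responses differed by 0.91 (interval -0.90 to 2.71, adjusted p = 0.961), a contrast with 0% of entries called by edgeR and 0 of the 3 members by edgeR, DESeq2 and limma-voom, also at an unadjusted p below 0.05.

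Within a library the balance of the 2 porcine members moved with breed. As a share of the tags of both, ssc-miR-194b-5p made up 0.191% ± 0.161 in Hezuo and 0.0288% ± 0.00576 in Bama (SD, n = 6 each). The highest share was 0.505% in Hezuo cold liver 2 (exact Clopper-Pearson 95% interval 0.424 to 0.597) and the lowest Hezuo share was 0.0558% in Hezuo normal liver 1 (0.0336 to 0.0871), against a Bama range of 0.0206% (0.00888 to 0.0405) to 0.0356% (0.0171 to 0.0655). These intervals cover counting error only, and those of Hezuo normal liver 1 and the highest Bama liver overlapped. The log2 ratio of ssc-miR-194b-5p to ssc-miR-194a-5p was 2.41 higher in Hezuo (exact permutation within temperature, two-sided, p = 0.005, adjusted 0.015; no smaller p is possible with 400 arrangements), being 2.90 higher under cold and 1.91 higher at normal temperature. With medians in place of means the adjusted p of this exact test was 0.06 (log2 difference 2.52). Between cold and normal livers the log2 ratio differed by 0.31 (exact permutation p = 0.57, adjusted 0.855).

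The miRNA whose pattern was most like that of ssc-miR-194b-5p was ssc-miR-215, whose gene is its neighbour. Among 234 entries of mean CPM 10 or more outside the family, ssc-miR-215 had the highest Pearson correlation of log2 CPM with it over the 12 libraries, 0.948, followed by a predicted entry at 0.784. MiR-215 shares its seed with miR-192.
ssc-miR-215: aTGACCTAtgaattgacagac
ssc-miR-192: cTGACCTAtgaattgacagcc
Both are shown, seed in capitals, because they differ by C1A and C20A with miR-192 as the first base named, so that each locus pairs a miR-194 with a near copy of the other locus's partner. In CPM, ssc-miR-215 was at 67.0, 112 and 45.7 in Hezuo cold livers and 36.6, 64.5 and 66.1 in Hezuo normal livers. It was at 36.7, 31.3 and 40.1 in Bama cold livers and 43.1, 34.2 and 32.4 in Bama normal livers. The highest and the lowest Hezuo livers were the same for both miRNAs. Hezuo minus Bama was 0.83 for ssc-miR-215 averaged over temperatures (SE 0.21, adjusted p = 0.0197), 1.06 under cold (adjusted p = 0.0658) and 0.61 at normal temperature (adjusted p = 0.274).

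**Figure D2:**
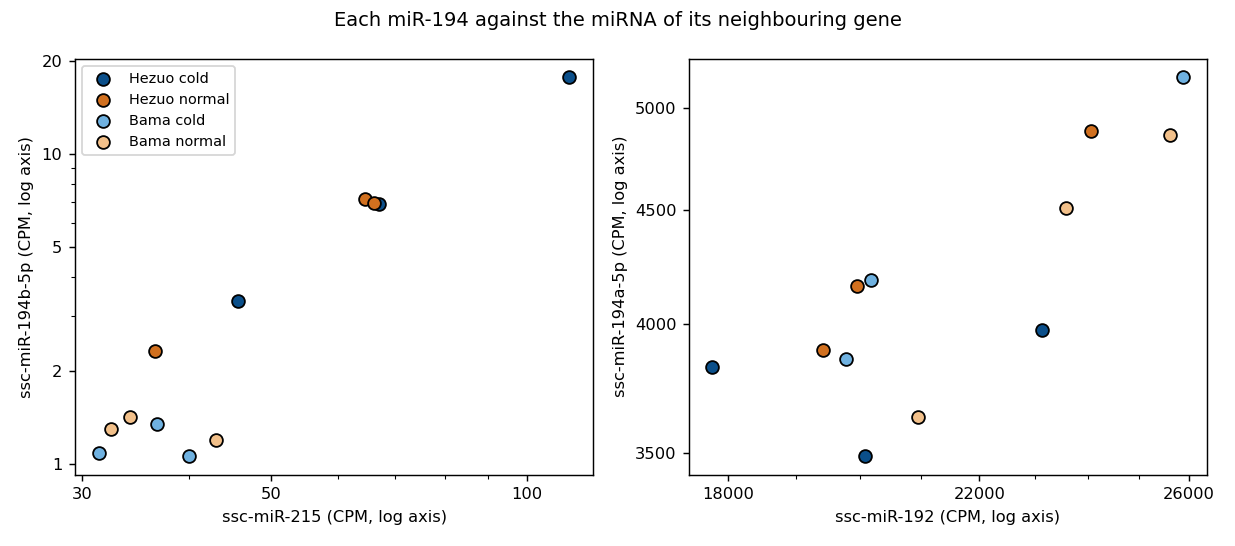
Each porcine miR-194 (CPM, vertical log axis) against the miRNA of its neighbouring gene (CPM, horizontal log axis) in the 12 libraries, coloured by group. In the left panel the Hezuo livers string out from 2.32 to 17.7 CPM of ssc-miR-194b-5p as ssc-miR-215 goes from 36.6 to 112 CPM, while the Bama livers stay between 1.06 and 1.42 CPM.

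Within breeds, 6 such relations were examined after the values had been seen. Over the 6 Hezuo livers, ssc-miR-194b-5p and ssc-miR-215 had a Pearson r of 0.998 (exact permutation p = 0.00833, adjusted 0.05) and a Spearman rho of 0.771 (exact permutation p = 0.103, adjusted 0.308). Without the 2 livers farthest from the median of ssc-miR-215, which are Hezuo cold liver 2 and Hezuo normal liver 1, r was 0.992. That value rested on Hezuo cold liver 3, at 45.7 CPM of ssc-miR-215 and 3.37 CPM of ssc-miR-194b-5p. Hezuo cold liver 1 and Hezuo normal livers 2 and 3 lay close together. They had 67.0, 64.5 and 66.1 CPM of ssc-miR-215 and 6.93, 7.16 and 6.97 CPM of ssc-miR-194b-5p. Over the 6 Bama livers r was -0.20 (exact permutation p = 0.681, adjusted 0.681) and rho -0.14 (exact permutation p = 0.803, adjusted 0.803), and r was 0.72 without Bama cold liver 3 and Bama normal liver 1, so no relation was resolved at those low counts. In Hezuo, ssc-miR-194b-5p against its seed relative ssc-miR-194a-5p gave r = -0.35 (exact permutation p = 0.512, adjusted 0.615) and rho = -0.43 (exact permutation p = 0.419, adjusted 0.629), and r was -0.47 without the 2 farthest livers. In Bama that pair gave r = -0.32 (exact permutation p = 0.511, adjusted 0.615) and rho = -0.31 (exact permutation p = 0.564, adjusted 0.677), and r was 0.25 without the 2 farthest. For ssc-miR-194a-5p and ssc-miR-192, r was 0.64 in Hezuo (exact permutation p = 0.158, adjusted 0.317; rho 0.54, exact p = 0.297, adjusted 0.594) and 0.895 in Bama (exact permutation p = 0.0264, adjusted 0.0792; rho 0.829, exact p = 0.0583, adjusted 0.308). Without the 2 farthest livers r was -0.06 in Hezuo and 0.645 in Bama, so the Hezuo value rested on those livers.

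The proportion of ssc-miR-194b-5p to its neighbour was also set out by library. There were 103, 158 and 73.8 tags of ssc-miR-194b-5p per 1000 tags of ssc-miR-215 in Hezuo cold livers and 63.5, 111 and 105 in Hezuo normal livers. Bama cold livers had 36.7, 34.6 and 26.5 and Bama normal livers 27.8, 41.5 and 40. All 6 Hezuo livers lay above all 6 Bama livers in this ratio, which was looked at after the values had been seen and was not tested. The CPM of ssc-miR-194b-5p alone already separated the breeds, as for 2.39% of the tested entries. No share of other ratios that separate in this way was worked out.

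The longer form miR-194-x was higher in Hezuo than in Bama, and cold gave no call for it. Its CPM was 169, 119.8 and 127 in Hezuo cold livers, against 174, 139 and 169 in Hezuo normal livers. It was 94.6, 94.3 and 108 in Bama cold livers, against 112, 151 and 117 in Bama normal livers. Under cold every Hezuo liver lay above every Bama liver, as for 10.4% of the tested entries, and at normal temperature the breeds overlapped. Averaged over temperatures it was 1.33-fold higher in Hezuo (log2 difference 0.42, SE 0.11, 95% interval 0.17 to 0.66, adjusted p = 0.0286). That call passed without Hezuo cold liver 2, Hezuo normal liver 2 or Bama normal liver 2, and was lost without any 1 of the other 9 libraries (0.31 to 0.44, adjusted p = 0.0518 to 0.117). It was also lost with library totals as the only scaling (0.37, adjusted p = 0.0884), and summed with ssc-miR-194a-5p, which outweighs it, the value was -0.03 (adjusted p = 0.876). Neither single temperature passed, with 0.49 under cold (adjusted p = 0.143) and 0.35 at normal temperature (adjusted p = 0.249).

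Cold minus normal for miR-194-x was -0.29 over both breeds (SE 0.11, 95% interval -0.53 to -0.04, unadjusted p = 0.0251, adjusted p = 0.222), a value that did not pass. Of the 460 entries 2.17% were called in that contrast and 0 of the 3 members, by edgeR, DESeq2 and limma-voom alike, with miR-194-x the 1 member at an unadjusted p below 0.05. In Bama it was -0.36 (adjusted p = 0.335), with all 3 cold livers below all 3 normal livers, as in 7.83% of entries, and in Hezuo -0.22 (adjusted p = 0.758), with overlap. In Bama 1.09% of entries were called under cold and in Hezuo 0% by edgeR, and again 0 of the 3 members by edgeR, DESeq2 and limma-voom; at an unadjusted p below 0.05 there was 1 member in Bama (miR-194-x, with edgeR and DESeq2) and 0 in Hezuo with each tool. The difference between the breeds' responses was 0.14 (interval -0.35 to 0.63, adjusted p = 0.998).

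**Figure D3:**
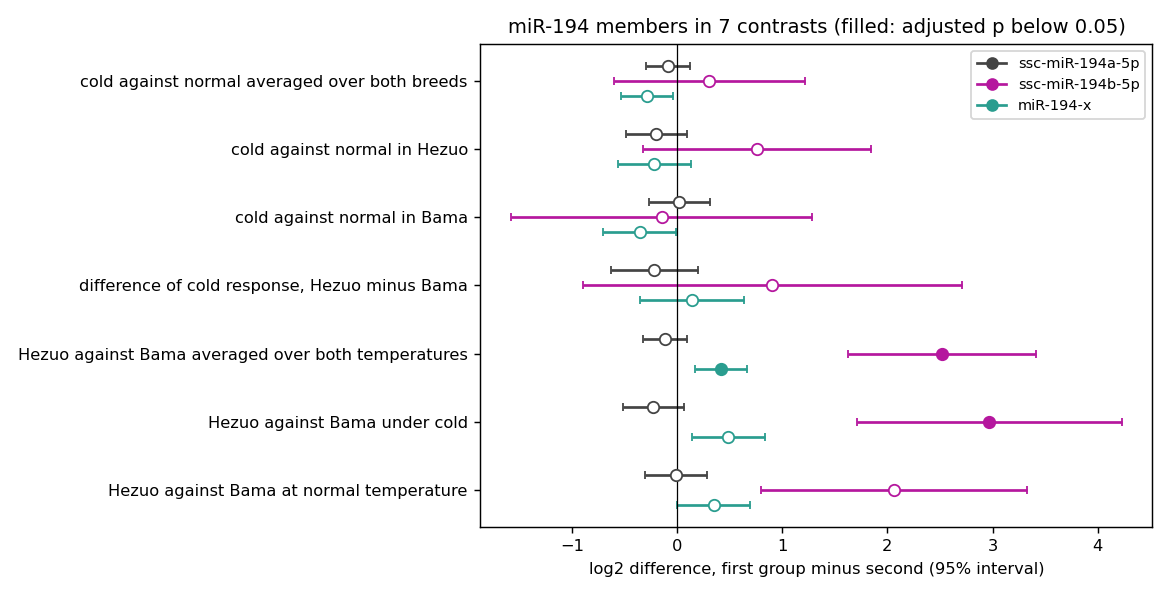
Log2 difference, the first group named minus the second, of each miR-194 entry in the 7 contrasts of the edgeR fit, with 95% intervals; filled points passed at an adjusted p below 0.05. The 3 filled points are ssc-miR-194b-5p at 2.52 and 2.97 and miR-194-x at 0.42, all between breeds.

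Set against ssc-miR-194a-5p, the 21-nt entry whose bases it repeats, miR-194-x lay higher in all 6 Hezuo livers than in all 6 Bama livers, as in 8.57% of 35 such pairs. Where its extra 3′ bases come from was not tested. Its share of the tags of both was 4.07%, 3.32% and 3.21% in Hezuo cold livers and 4.03%, 3.46% and 3.35% in Hezuo normal livers, with exact 95% intervals reaching no further than 3.02 to 4.28. The share was 2.39%, 2.20% and 2.04% in Bama cold livers and 2.43%, 3.003% and 3.12% in Bama normal livers, with exact intervals within 1.90 to 3.32. Bama normal livers 2 and 3 came closest to the Hezuo livers. These intervals cover counting error only, and some overlapped between breeds. For example, Bama normal liver 3 had 2.92 to 3.32 and Hezuo cold liver 3 had 3.02 to 3.41. The log2 ratio was 0.52 higher in Hezuo (exact permutation within temperature p = 0.005, the smallest possible, adjusted 0.015), 0.69 higher under cold and 0.36 higher at normal temperature. With medians in place of means the adjusted p of this exact test was 0.06 (log2 difference 0.41). Between cold and normal livers it differed by -0.20 (exact permutation within breed p = 0.08, adjusted 0.16), by -0.04 in Hezuo and -0.37 in Bama; without Hezuo cold liver 1 this was -0.26 (exact permutation, adjusted p = 0.04).

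A longer form gaining on its porcine entry in Hezuo was not particular to miR-194. The table held 35 pairs of a porcine entry and a listed sequence that continues it at the 3′ end, with a mean of at least 10 CPM for each. These pairs held 34 longer forms and 30 porcine entries, since miR-218b was paired with 2 entries of the same counts and some entries had more than 1 longer form. In the miR-218 and miR-9 pairs both entries had the same or nearly the same counts, and whether the table lists some tags under both was not tested. The log2 ratio of the longer to the shorter was higher in Hezuo in 27 of the 35, with a median difference of 0.23, and miR-194-x was 5th in size. In 3 of the 35 pairs, 8.57%, all 6 Hezuo livers lay above all 6 Bama livers, and miR-194-x was one of these. The forms of miR-192 went the same way, with 0.88 for miR-192-z and 0.47 for miR-192-x against ssc-miR-192. Between cold and normal livers the median over the 35 was 0.00 and 14 were negative, with miR-194-x the 7th lowest.

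**Figure D4:**
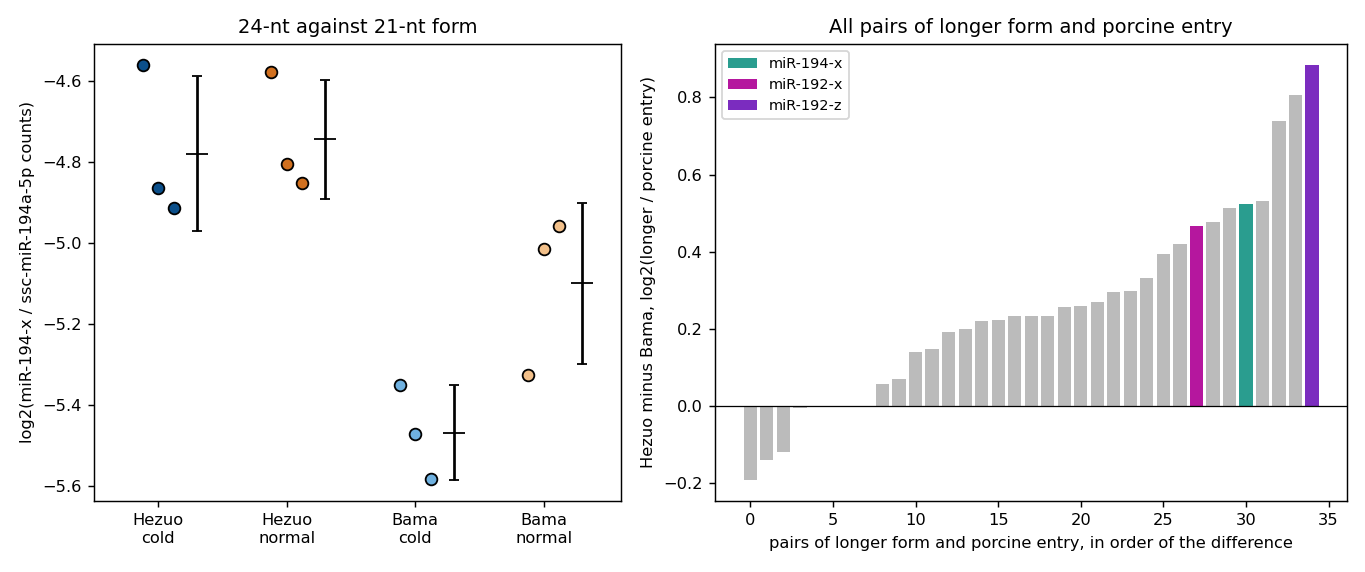
Left, log2 ratio of miR-194-x to ssc-miR-194a-5p counts per library, by group, with mean and SD (n = 3 each). Right, the Hezuo minus Bama difference of such a ratio for each of 35 pairs of a longer form and its porcine entry, in order of size; miR-194-x stands at 0.52 among 27 positive bars.

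In pattern, miR-194-x was closest to forms listed under miR-192 and miR-215. The entries closest to it in log2 CPM over the 12 libraries were miR-215-z (Pearson r = 0.949), miR-192-x (0.943), miR-192-z (0.917), miR-215-x (0.880) and miR-139-5p (0.802). MiR-215-z bears the name of miR-215, but its letters are those of miR-192-x from the second base on.
miR-192-x: cTGACCTAtgaattgacagccat
miR-215-z: tGACCTATgaattgacagccat
With its start moved by 1 base, its bases 2 to 8 also differ, as the capitals show, so its name is no evidence of the locus. For ssc-miR-194a-5p the closest were miR-7550-z (0.832), ssc-miR-192 (0.807), miR-26a (0.785), miR-23b (0.758) and miR-9993-y (0.695). After ssc-miR-215 and the predicted entry, ssc-miR-194b-5p was closest to miR-193-x (0.772), miR-6715-z (0.759) and miR-204 (0.756). These correlations describe 12 libraries that share breed and temperature groups and scaling.

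The opposite strand of the miR-194a hairpin was listed at 21 and 23 nt, as ssc-miR-194a-3p and miR-194-y.
ssc-miR-194a-3p: cCAGTGGGgctgctgttatct
miR-194-y: cCAGTGGGgctgctgttatctgt
Both are given because they repeat the contrast of a short and a long form on the other strand. The short strand averaged 12.7 ± 1.51 CPM in Hezuo cold (SD, n = 3), 14.0 ± 5.45 in Hezuo normal, 13.8 ± 6.04 in Bama cold and 15.1 ± 1.17 in Bama normal, and Hezuo minus Bama was -0.11 (interval -0.57 to 0.35, adjusted p = 0.798). The long one averaged 9.92 ± 1.13 CPM in Hezuo cold, 13.1 ± 2.51 in Hezuo normal, 7.82 ± 2.52 in Bama cold and 8.93 ± 2.25 in Bama normal, and Hezuo minus Bama was 0.45 (interval 0.03 to 0.87, adjusted p = 0.17), which did not pass. No 3p entry of miR-194b was analysed here.

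Among the entries matched by name to lists of other miRNAs of liver and of the p53 response, the calls between breeds fell mostly on those named after miR-192 and miR-215. Longer forms were counted only where they keep the listed name. MiR-148-z, miR-99-z and miR-125-z, which continue ssc-miR-148a-3p, ssc-miR-99a-5p and ssc-miR-125b, were therefore left out of the liver-enriched list. The entry ssc-miR-125b itself was also missed. What these omissions do to the counts below was not tested. Averaged over temperatures, 7 of the 25 tested entries of the liver-enriched list were higher in Hezuo and 1 was lower, with a median of 0.11 beside a median of 0.00 over all entries; of all entries 6.74% were called higher and 4.35% lower. The 7 were ssc-miR-215 and the forms miR-192-z (0.75), miR-101-y (0.39), miR-215-x (0.36), miR-192-x (0.34), miR-122-x (0.33) and miR-215-z (0.33), and the lower one was miR-455-5p at -0.53. Like miR-215-z, miR-215-x follows miR-192-x from its second base, and it differs from it by A22T alone. Both differ from ssc-miR-215 by A20C, so their names are no evidence of the miR-215 locus. The p53-linked list, which shares the miR-192 and miR-215 entries, had 6 of 15 higher and 0 lower, with a median of 0.36. Of these 6, miR-107-z (0.52, adjusted p = 0.028) is the 1 not named after miR-192 or miR-215. It continues the sequence of ssc-miR-103, which is not in this list, by 2 bases at the 3′ end. Its name is therefore no evidence that it belongs with miR-107. Under cold against normal, over both breeds, 2 of 25 liver-enriched and 1 of 15 p53-linked entries were lower and 0 higher, beside 0.87% of all entries called lower. These were miR-192-z (-0.72), in both lists, and miR-455-3p (-0.98), in the liver-enriched one.

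Markers of other cell types were described beside these results. Of 32 tested markers of erythroid, myeloid, lymphoid, endothelial, stromal, epithelial and muscle cells, 0 were called between breeds averaged over temperatures by edgeR, with 9 at an unadjusted p below 0.05, 5 called by DESeq2 and 0 by limma-voom. The erythroid markers miR-451, miR-144 and miR-486 summed to 670 to 2449 CPM in Hezuo cold and 632 to 1892 CPM in Hezuo normal, against 538 to 1343 CPM in Bama cold and 440.1 to 995 CPM in Bama normal, with a median log2 difference of 0.68 over 5 tested entries. Over the other lists this median was -0.22 for the myeloid markers miR-223 and miR-142 (7 entries), 0.59 for the lymphoid markers miR-150 and miR-155 (3 entries) and 0.06 for the endothelial marker miR-126 (4 entries). The stromal markers miR-143, miR-145, miR-199a and miR-214 had a median of -0.15 and the epithelial miR-200 family of -0.36, over 8 and 4 tested entries. Hepatocyte markers had a median of -0.03, with 1 of 6 tested entries, miR-122-x, called as higher in Hezuo. The muscle markers miR-1, miR-133a-3p and miR-206 summed to 10.6 to 15.0 CPM in Hezuo cold and 6.57 to 9.54 CPM in Hezuo normal, against 9.29 to 13.1 CPM in Bama cold and 8.51 to 14.1 CPM in Bama normal. Most of this was miR-1 (mean 9.26 CPM), the 1 tested entry of 5, while miR-133a-3p (0.631 CPM) and miR-206 (0.543 CPM) were near 0. Hezuo minus Bama for miR-1 was -0.15 over both temperatures and -0.58 at normal temperature, and cold minus normal in Hezuo was 0.71, each without a call, the last 2 at an unadjusted p below 0.05 by edgeR. The part of cell composition in the breed differences of miR-194 was not tested.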

How the data were processed

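Small RNA of 18 to 30 nt was selected on a gel from TRIzol-extracted liver RNA, per the labels' protocols. The authors deposited 1 table with a raw tag count and a TPM value (tags scaled to the library's total) per entry and library, per the file headers. The TPM values were used only to work out that the listed counts make up 84.3% to 88.2% of each library's tags. The table had 303 porcine entries, 379 named after other species and 92 predicted ones, and 2 of its lines were empty and are not analysed here. For the aligner, the miRNA database and the genome build: not given in the sources used here.

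Counts were fitted with edgeR 4.0.16 (R 4.3.3; TMM scaling, filterByExpr by group, robust quasi-likelihood F test, 1 coefficient per group over all 12 libraries), and 460 entries were tested with Benjamini-Hochberg adjustment and a threshold of 0.05. The fit was tested on simulated data. Within-library log2 ratios were compared by two-sided exact permutation over 400 arrangements, exchanging cold and normal within breed, or breed within temperature, with adjustment over 6 tests. Alternatives used DESeq2 1.42.0, limma 3.58.1 (voom), other scalings and filters, forms summed by their first 16 nt, and each library left out. Sequences were read from the deposited table, and gene neighbours from RefSeq by symbol in order of start position, with no coordinates given here.

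Named entries were the members, forms and strands of miR-192, miR-215 and miR-194, the entries next to miR-194a in abundance and the 5 most like it in pattern, with the entries called in the liver-enriched, p53-linked and cell marker lists. A further list is not reported here. The members and lists were chosen with earlier results of these data known. The likeness of the other 2 members, the within-breed correlations and the length forms were added after the values were seen.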

Additional observations from a re-analysis of the deposited data

How the results depend on the processing

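Over 27 results and 242 alternatives other than leaving out a library, 221 kept direction and side of the threshold. With direction kept, 7 lost the call (2 of them in a blocked test too small to pass) and 2 gained it. The other 12 changed sign, and some of these also changed side of the threshold. With forms summed by their first 16 nt, miR-194-x between breeds lost its edgeR call (adjusted p = 0.876). The summed ratio of ssc-miR-194a-5p to ssc-miR-192 gained a call in exact permutation tests for cold (adjusted p = 0.02) and for breed (adjusted p = 0.01). The causes of these changes were not tested. For ssc-miR-194a-5p, near 0, cold minus normal in Bama was -0.0042 with library totals, -0.039 without miR-122-5p and -0.0388 with forms summed by their first 16 nt (-0.11 to 0.12 with 1 library left out), and Hezuo minus Bama at normal temperature was 0.14 with upper quartile scaling, 0.0041 with a mean of at least 10 counts and 0.042 with summed forms (-0.14 to 0.10). For miR-194-x, summed forms, which are mostly ssc-miR-194a-5p, gave -0.15 for the difference of cold responses, -0.034 for Hezuo minus Bama and -0.11 for the same under cold; library totals gave 0.37 between breeds. For ssc-miR-194b-5p, upper quartile scaling gave 2.20 and DESeq2 2.04 at normal temperature, and limma-voom 2.60 under cold. Medians gave 2.52 for the ratio of ssc-miR-194b-5p to ssc-miR-194a-5p, 0.41 for that of miR-194-x and -0.050 for ssc-miR-194a-5p to ssc-miR-192 between breeds; summed forms gave the last -0.31 between breeds and 0.18 under cold. With 1 library left out, cold minus normal for ssc-miR-194b-5p was -0.10 to 0.54 over both breeds and -0.043 to 1.203 in Hezuo. Its Hezuo minus Bama was 2.04 to 2.72, 2.10 to 3.37 under cold and 1.82 to 2.44 at normal temperature. For miR-194-x it was 0.31 to 0.49, and the difference of cold responses -0.0067 to 0.28. The cold difference of the ratios to ssc-miR-194a-5p was -0.031 to 0.60 (ssc-miR-194b-5p) and -0.26 to -0.16 (miR-194-x), and the ratio to ssc-miR-192 ranged over -0.060 to 0.021 for cold and -0.036 to 0.045 for breed.

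The pig numbers were not taken to pair libraries: deviations of same-numbered cold and normal livers correlated at 0.00785 to 0.168. With the number as a replicate block, miR-194-x between breeds was 0.41 (adjusted p = 0.0581), and the ratios to ssc-miR-194a-5p were 2.41 and 0.52, both at an adjusted p of 0.0938 in exact sign-flip tests. Between breeds the shared number joins a Hezuo and a Bama liver, which are different animals, so it marks no known link. With 6 pairs of this kind these ratios were at the smallest unadjusted p that sign flips can give, 0.0312. That could not pass after adjustment, so both losses of the ratios come from the test's size and say nothing of stability. The block changed no other call. Library totals moved the median of all entries to 0.13 for cold in Hezuo and 0.15 for the difference of responses, and upper quartile scaling to 0.19 for breed at normal temperature and -0.13 for the difference of responses. With 8 to 14 tags of ssc-miR-194b-5p per Bama library, counting limits its values there.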
